A study of Mus musculus with 9 samples.

Results

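The epithelial sodium channel (ENaC) and the principal cell genes examined here were 9 named genes: the channel subunits Scnn1a, Scnn1b and Scnn1g, the corticosteroid genes Hsd11b2 and Nr3c2, the sodium pump modulator Fxyd4, and the transcription factors Gata3, Elf5 and Tfcp2l1. They were listed by symbol, with earlier results of these data known. All 9 were found among the 56923 genes of the count table, and all 9 were among the 17036 genes that passed a filter on low counts and were tested. RNA was sequenced from whole kidney of wild-type mice in 3 groups of 3 libraries. Sham mice had surgery without ischemia-reperfusion injury and are labelled as given phosphate-buffered saline (PBS). AKI_PBS mice had acute kidney injury (AKI) and were given PBS. AKI_PTPi_mEVs mice had the injury and received extracellular vesicles from milk that carried siRNA against Ptpn1, the gene of the tyrosine phosphatase PTP1B. The study asks about PTP1B in kidney injury, and no injured group with empty vesicles or a control siRNA was analysed here, so the siRNA and its carrier cannot be told apart. Age, sex, time after injury, batch and the number of animals per library are not in the labels, and p-values measure the spread between these libraries, which may be technical.

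Principal cells line the connecting tubule and collecting duct, where they take up the last fraction of filtered sodium. Sodium enters through ENaC, a channel of an alpha, a beta and a gamma subunit in the apical membrane, and leaves through the basolateral sodium pump. Aldosterone sets this transport through the mineralocorticoid receptor, which glucocorticoids can also occupy unless the enzyme encoded by Hsd11b2 inactivates them. Bulk RNA does not tell fewer cells of a type from less RNA per cell, and this holds for every value given here.

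Library totals lay between 9467851 and 11389479 counts. Levels are given in CPM, counts scaled to a common library size by library total and TMM factor. Values after ± are SD for levels and standard errors for log2 fold changes, with n = 3 libraries per group. Genes were called at a Benjamini-Hochberg adjusted p under 0.05 in edgeR's quasi-likelihood test, adjusted over all 17036 genes. The targeted gene Ptpn1 held 80.9 to 98.8 CPM in sham, 123 to 170 CPM in AKI_PBS and 94.0 to 106 CPM in AKI_PTPi_mEVs. One injured library stood apart: AKI_PBS replicate 3 was the highest of its group in Scnn1a, Scnn1b, Scnn1g, Gata3 and Tfcp2l1 and the lowest in Fxyd4 and Elf5. In Nr3c2 it was also the highest, by little, at 11.8 CPM against 11.7 CPM in AKI_PBS replicate 2. Results of the 9 genes that change with it are given with and without it. The nuclear RNA Malat1 held 1951 to 2367 CPM in sham, 4016 to 4883 CPM in AKI_PBS and 1875 to 2270 CPM in AKI_PTPi_mEVs, and its part in the differences below was not tested.

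After injury, 5 of the 9 genes fell and 2 rose against sham. Hsd11b2, Nr3c2, Fxyd4, Gata3 and Elf5 fell, Scnn1a and Tfcp2l1 rose, and Scnn1b and Scnn1g did not pass the test. In this comparison 55.7% of all tested genes were called, 27.9% lower and 27.8% higher. The libraries of AKI_PBS and sham did not overlap in any of the 7 genes called, and such a gap was present in the lower direction for 30.9% and in the higher direction for 31.2% of all tested genes. The median log2 fold change was -0.78 over the 9 genes and 0.03 over all genes tested. In the vesicle-treated injured kidneys, 4 of the 9 genes (Hsd11b2, Nr3c2, Gata3 and Elf5) were higher and 2 (Scnn1a and Scnn1b) were lower than in AKI_PBS, against a background of 51.1% of tested genes called, 25.4% higher and 25.8% lower. These 6 did not overlap between the injured groups, as was so for 28.7% of all genes in the higher and 29.2% in the lower direction. The median there was 0.34, against -0.03 over all genes. Between the vesicle-treated and the sham kidneys none of the 9 passed, at the adjusted threshold or at an unadjusted p under 0.05 in edgeR, and none passed in DESeq2 or limma voom. In that comparison 13.2% of all genes were called. Scnn1a, Scnn1b, Scnn1g, Hsd11b2 and Nr3c2 lay below their sham range in every vesicle-treated library, as did 18.1% of all genes, and none of the 9 lay above it in every library, as 21.2% of all genes did. The comparisons share groups of libraries, so their values are not independent of each other.

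**Figure D1:**
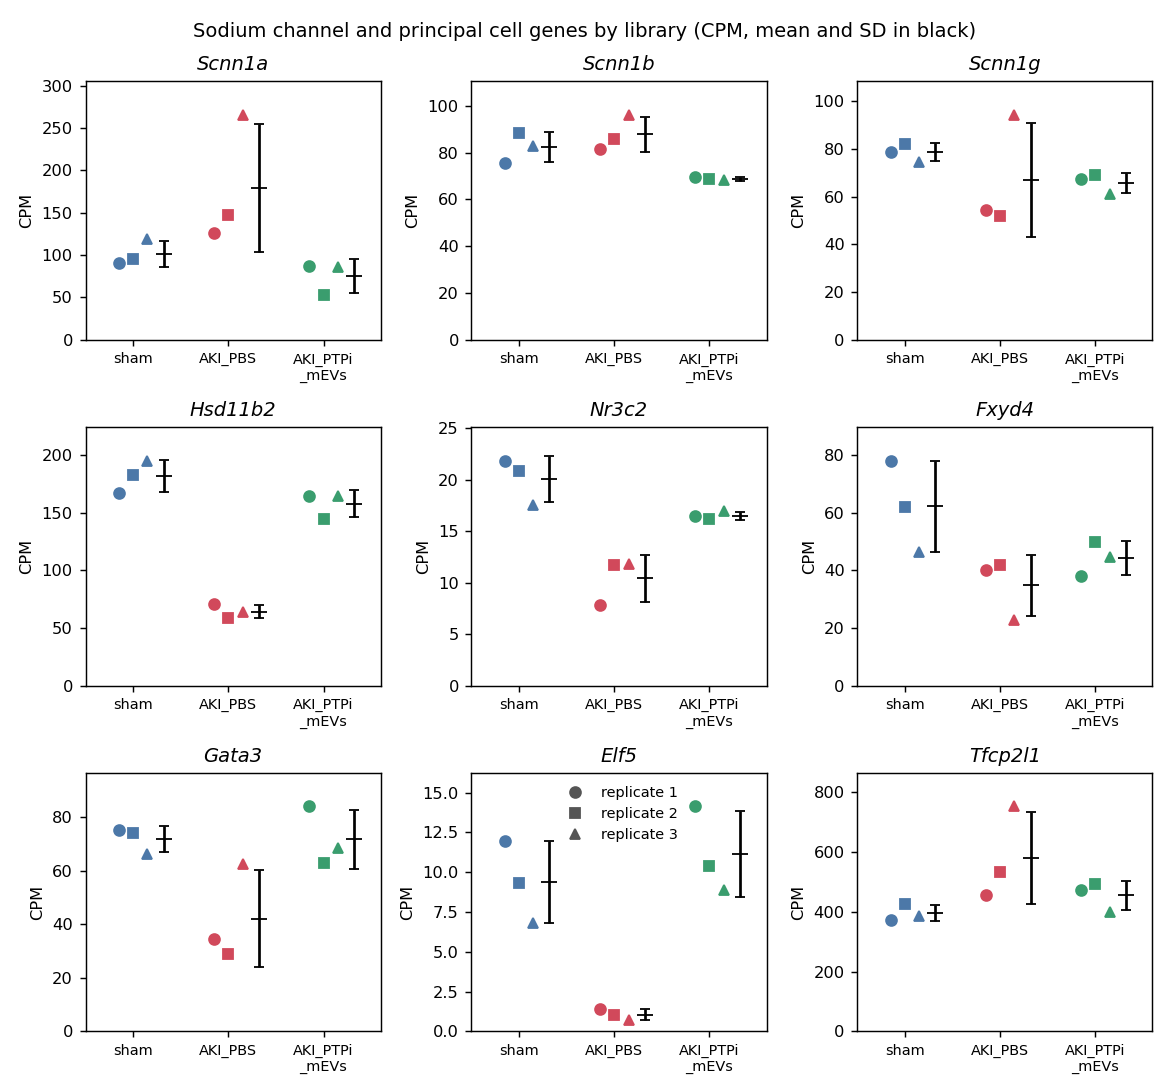
Level of each gene in CPM (vertical axis, from 0) in the 3 sham, 3 AKI_PBS and 3 AKI_PTPi_mEVs libraries; points are libraries, shapes mark the replicate number, and black lines are the mean and SD. Elf5 and Hsd11b2 lay lower in every AKI_PBS library than in any other, and AKI_PBS replicate 3 stood above the other injured libraries in Scnn1a (266 CPM), Scnn1g (94.3 CPM) and Tfcp2l1 (753 CPM).

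The channel subunits did not all move together. Over the 9 libraries Pearson's r of log2 CPM was 0.84 for Scnn1a with Scnn1b. It was 0.22 for Scnn1a with Scnn1g and 0.36 for Scnn1b with Scnn1g. The 9 points share the grouping and include AKI_PBS replicate 3, the highest library for each subunit, so these r values are descriptions. Scnn1a (ENSMUSG00000030340.17) encodes the alpha subunit, which is needed for the channel to reach the membrane and whose transcript rises with aldosterone in the kidney. Scnn1a held 90.7, 94.9 and 119 CPM in the sham libraries. After injury it held 126, 147 and 266 CPM in AKI_PBS and 87.7, 52.7 and 85.5 CPM in AKI_PTPi_mEVs. The injured PBS libraries were all above the sham libraries, and the vesicle-treated libraries were all below them. Scnn1a rose 1.77-fold in AKI_PBS (log2 fold change 0.82 ± 0.27, edgeR adjusted p = 0.0192). It was 2.38-fold lower in AKI_PTPi_mEVs than in AKI_PBS (-1.25 ± 0.27 on the log2 scale, edgeR adjusted p = 0.00214). Against sham the vesicle-treated kidneys differed by -0.43 on the log2 scale, with a 95% interval of -1.01 to 0.15, which did not pass (edgeR adjusted p = 0.322). Without AKI_PBS replicate 3 the rise was 0.43 and no longer passed (edgeR adjusted p = 0.0920), while the lower level after vesicles, at -0.85, still passed (edgeR adjusted p = 0.00435). The rise was also lost without sham replicate 1 (0.74, edgeR adjusted p = 0.0682) or sham replicate 2 (0.77, edgeR adjusted p = 0.0665).

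Scnn1b (ENSMUSG00000030873.10) encodes the beta subunit. It held 75.6, 88.4 and 82.9 CPM in sham, 81.6, 85.9 and 96.2 CPM in AKI_PBS, and 69.8, 68.8 and 68.2 CPM in AKI_PTPi_mEVs. Sham and AKI_PBS overlapped, and the vesicle-treated libraries lay below both. Against sham the AKI_PBS level differed by 0.10 on the log2 scale, with a 95% interval of -0.17 to 0.36 (edgeR adjusted p = 0.526). After vesicles Scnn1b was 1.28-fold lower than in AKI_PBS (-0.35 ± 0.12 on the log2 scale, edgeR adjusted p = 0.0289). This call did not hold without AKI_PBS replicate 3 (-0.28, edgeR adjusted p = 0.0707), nor when sham replicate 2, AKI_PBS replicate 2 or any single vesicle-treated library was left out, with values from -0.37 to -0.33.

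Scnn1g (ENSMUSG00000000216.9) encodes the gamma subunit, which, like the alpha subunit, is cut by proteases when the channel is activated. It held 78.7, 82.2 and 74.7 CPM in sham, 54.5, 51.9 and 94.3 CPM in AKI_PBS, and 67.4, 68.9 and 61.1 CPM in AKI_PTPi_mEVs. In AKI_PBS 2 libraries lay below all sham libraries and replicate 3 lay above all of them. The difference from sham was -0.23 on the log2 scale, with a 95% interval of -0.65 to 0.19 (edgeR adjusted p = 0.330). Without AKI_PBS replicate 3 it was -0.56 and passed (edgeR adjusted p = 0.00199). Between vesicles and PBS the difference was -0.02 with all libraries, with a 95% interval of -0.45 to 0.40. Without AKI_PBS replicate 3 it turned to 0.31 (edgeR adjusted p = 0.0487). Its direction there also turned with AKI_PTPi_mEVs replicate 3 left out and in 3 other settings, while that against sham did not turn with any library left out. Against sham the vesicle-treated level differed by -0.26, with a 95% interval of -0.68 to 0.17 (edgeR adjusted p = 0.427).

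The ratio between subunits within a library does not depend on how libraries are scaled. The log2 ratio of Scnn1a to Scnn1g counts was 0.21, 0.21 and 0.67 in sham, 1.21, 1.50 and 1.50 in AKI_PBS, and 0.38, -0.39 and 0.48 in AKI_PTPi_mEVs. All AKI_PBS libraries, replicate 3 included, lay above those of both other groups. The mean ratio was 2.06-fold higher in AKI_PBS than in sham, a log2 difference of 1.04 (two-sided exact permutation p = 0.1, 0.225 adjusted over the 9 ratio tests). After vesicles it was lower than in AKI_PBS by a log2 difference of -1.24 (exact permutation p = 0.1, adjusted 0.225). With 3 against 3 libraries 0.1 is the smallest p possible, so no ratio could pass. Without AKI_PBS replicate 3 the difference from sham was 0.995.

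The log2 ratio of Scnn1a to Scnn1b was 0.26, 0.10 and 0.52 in sham, 0.63, 0.77 and 1.47 in AKI_PBS, and 0.33, -0.38 and 0.33 in AKI_PTPi_mEVs. AKI_PBS again lay above both other groups with no overlap, with a log2 difference of 0.66 from sham (exact permutation p = 0.1, adjusted 0.225). Without replicate 3 this difference was 0.41. For Scnn1b to Scnn1g the log2 ratios ran from -0.06 to 0.15 in sham, from 0.03 to 0.73 in AKI_PBS and from -0.0023 to 0.16 in AKI_PTPi_mEVs. These groups overlapped (AKI_PBS against sham, log2 difference 0.38, exact permutation p = 0.3, adjusted 0.45). Vesicle-treated and sham kidneys differed by at most 0.20 in the size of any log2 ratio, with exact permutation p from 0.6 to 0.9.

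**Figure D2:**
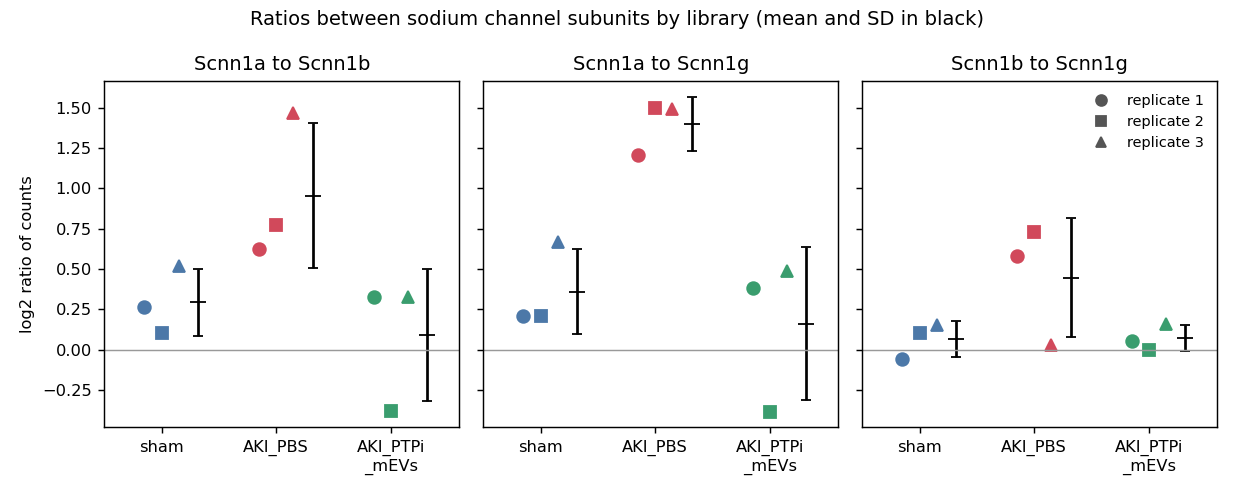
Log2 ratio of deposited counts between channel subunits (vertical axis) in each library of the 3 groups; points are libraries, shapes mark the replicate number, and black lines are the mean and SD. The Scnn1a to Scnn1g ratio lay between 1.21 and 1.50 in AKI_PBS and at or below 0.67 in every other library, and the Scnn1b to Scnn1g ratio overlapped between groups.

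Neither Scnn1b nor Scnn1g passed the test after injury with all libraries, while Scnn1a did. Without AKI_PBS replicate 3 Scnn1g passed and Scnn1a did not. No sequence before the start was found for Scnn1a, so none can be compared with it. The sequences before the starts of Scnn1b and Scnn1g, neighbours on mouse chromosome 7, are shown as a description only. They are the 250 bases before the RefSeq start on build GRCm38.p6, written 5′ to 3′. Capitals mark a loose pattern used here for the CP2 family, to which Tfcp2l1 belongs. It is the letters CNNG, any 6 bases, and CNNG again, where N is any base, and it reads the same on both strands.
Scnn1g chr7:121734229-121734478 (+): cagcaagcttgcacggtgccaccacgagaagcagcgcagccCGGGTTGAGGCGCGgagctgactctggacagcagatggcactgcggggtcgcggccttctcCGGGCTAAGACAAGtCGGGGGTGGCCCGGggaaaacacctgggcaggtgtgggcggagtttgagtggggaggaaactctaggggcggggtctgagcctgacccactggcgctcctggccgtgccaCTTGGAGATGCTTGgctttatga
Scnn1b chr7:121864788-121865037 (+): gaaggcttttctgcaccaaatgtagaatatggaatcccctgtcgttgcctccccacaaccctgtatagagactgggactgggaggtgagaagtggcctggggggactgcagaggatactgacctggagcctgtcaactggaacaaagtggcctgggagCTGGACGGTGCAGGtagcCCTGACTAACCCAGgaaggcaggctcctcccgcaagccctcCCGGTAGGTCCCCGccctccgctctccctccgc
The Scnn1g window holds 4 such matches and the Scnn1b window 3, and 63.5% of 32851 RefSeq windows of this length hold at least 1. The letters AGGAAG, the core bound by ETS factors such as Elf5, occur in the Scnn1b window from 62 to 57 bases before the start, overlapping a CP2-type match, and in 29.5% of all windows on either strand. The letters AGAACA are only a part of the element that corticosteroid receptors bind. They were in none of the 8 windows found for 7 of the 9 genes, both of these included, against 16.1% of all windows. These matches are of letters only.

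The genes that set the corticosteroid response of principal cells both fell after injury. Hsd11b2 (ENSMUSG00000031891.7) encodes the dehydrogenase that inactivates glucocorticoids and so reserves the receptor for aldosterone. It held 167, 183 and 195 CPM in sham, 70.6, 58.8 and 63.6 CPM in AKI_PBS, and 165, 145 and 165 CPM in AKI_PTPi_mEVs. The AKI_PBS libraries lay far below the rest, and each vesicle-treated library lay under the lowest sham library. Hsd11b2 fell by 64.7% after injury, which is -1.50 ± 0.13 on the log2 scale (edgeR adjusted p = 1.92e-06), and was 2.46-fold higher after vesicles than after PBS (1.30 ± 0.13, edgeR adjusted p = 8.88e-06). The remaining difference from sham was -0.20, with a 95% interval of -0.48 to 0.07 (edgeR adjusted p = 0.326). Without AKI_PBS replicate 3 the fall was -1.49.

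Nr3c2 (ENSMUSG00000031618.14) encodes the mineralocorticoid receptor itself. Its level was 21.9, 20.8 and 17.6 CPM in sham, 7.78, 11.7 and 11.8 CPM in AKI_PBS, and 16.4, 16.2 and 16.9 CPM in AKI_PTPi_mEVs. The 3 groups did not overlap, with the vesicle-treated libraries between the other groups and close to one another. Nr3c2 fell by 48.1% after injury (-0.95 ± 0.19, edgeR adjusted p = 0.00107) and was 58.3% higher after vesicles than after PBS (0.66 ± 0.19, edgeR adjusted p = 0.0117). From sham the vesicle-treated level differed by -0.28, with a 95% interval of -0.69 to 0.12 (edgeR adjusted p = 0.350). The gene shares 247 exon bases with an annotated gene on the opposite strand, Gm10649, and whether counting used strand is not given in the sources used here, and reads of the pair could not be told apart.

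Fxyd4 (ENSMUSG00000004988.10) encodes a small membrane protein of the collecting duct, also called CHIF, that raises the affinity of the sodium pump for sodium. It held 78.1, 62.0 and 46.4 CPM in sham, 40.0, 41.8 and 22.7 CPM in AKI_PBS, and 38.2, 49.9 and 44.7 CPM in AKI_PTPi_mEVs. Sham and AKI_PBS did not overlap, but the vesicle-treated libraries overlapped both. Fxyd4 fell by 44.0% after injury (-0.84 ± 0.23, edgeR adjusted p = 0.00858), and without AKI_PBS replicate 3 by 0.60 on the log2 scale (edgeR adjusted p = 0.0199). After vesicles it differed from AKI_PBS by 0.34, with a 95% interval of -0.16 to 0.85 (edgeR adjusted p = 0.235), and from sham by -0.49, with a 95% interval of -0.99 to 0.01 (edgeR adjusted p = 0.181). Of the 5 genes that fell after injury, it was the one for which the difference between the injured groups did not pass.

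The transcription factors went in different directions. Elf5 (ENSMUSG00000027186.16), an ETS factor whose expression in the mouse kidney marks principal cells, had the largest fold change of the 9 in either comparison with AKI_PBS and the lowest level. It held 12.0, 9.30 and 6.81 CPM in sham, 1.38, 1.03 and 0.707 CPM in AKI_PBS, and 14.1, 10.4 and 8.90 CPM in AKI_PTPi_mEVs. The AKI_PBS values rest on 16, 12 and 8 counts, against 67 to 122 counts in sham and 81 to 154 counts after vesicles. Sham and vesicle-treated libraries overlapped, and every AKI_PBS library lay far below both. Elf5 fell by 88.9% (-3.15 ± 0.33, edgeR adjusted p = 7.53e-06) and was 10.7-fold higher after vesicles than after PBS (3.41 ± 0.33, edgeR adjusted p = 6.81e-06). The vesicle-treated level differed from sham by 0.25, with a 95% interval of -0.33 to 0.84 (edgeR adjusted p = 0.584).

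Gata3 (ENSMUSG00000015619.11) encodes a zinc finger factor required for the nephric duct and kept in the adult collecting duct. It held 75.3, 74.2 and 66.3 CPM in sham, 34.5, 29.0 and 62.7 CPM in AKI_PBS, and 84.1, 62.9 and 68.4 CPM in AKI_PTPi_mEVs. AKI_PBS replicate 3 lay just under the lowest library of the other groups, and the other 2 injured libraries lay far under it. Gata3 fell by 41.6% (-0.78 ± 0.23, edgeR adjusted p = 0.0134) and was 70.7% higher after vesicles than after PBS (0.77 ± 0.24, edgeR adjusted p = 0.0151). Without AKI_PBS replicate 3 these values were -1.18 (edgeR adjusted p = 5.95e-05) and 1.18 (edgeR adjusted p = 8.54e-05). Without AKI_PBS replicate 2 they were -0.56 (edgeR adjusted p = 0.0589) and 0.57, and neither passed. The higher level after vesicles was also lost without AKI_PBS replicate 1 or AKI_PTPi_mEVs replicate 1, at 0.66 in each case. Vesicle-treated and sham kidneys differed by -0.0028, with a 95% interval of -0.51 to 0.50. T cells and mesangial cells also use Gata3, and their markers are given below. Its exons share 155 bases with the antisense gene Gm13256 and 77 with 9230102O04Rik.

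Tfcp2l1 (ENSMUSG00000026380.11) encodes a CP2 family factor that in mice is needed for the mixed pattern of principal and intercalated cells. It was the most abundant of the 9 in CPM, with 374, 427 and 387 CPM in sham, 456, 534 and 753 CPM in AKI_PBS, and 474, 493 and 401 CPM in AKI_PTPi_mEVs. All AKI_PBS libraries lay above sham, and the vesicle-treated libraries overlapped both groups. Tfcp2l1 rose by 46.7% after injury (0.55 ± 0.18, edgeR adjusted p = 0.0180). The rise was 0.32 without AKI_PBS replicate 3 (edgeR adjusted p = 0.0789), and it also missed the threshold without sham replicate 1 (0.50, edgeR adjusted p = 0.0624) or sham replicate 3 (0.53, edgeR adjusted p = 0.0532). After vesicles it differed from AKI_PBS by -0.35, with a 95% interval of -0.73 to 0.03 (edgeR adjusted p = 0.116), and from sham by 0.20, with a 95% interval of -0.18 to 0.59. Scaled by library totals without TMM factors, the difference between injured groups was -0.45 and passed (edgeR adjusted p = 0.0378), as it did without AKI_PBS replicate 1 (-0.49, edgeR adjusted p = 0.0375). Exons of Tfcp2l1 share 130 bases with Gm23497, an annotated snRNA gene on the same strand.

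**Figure D3:**
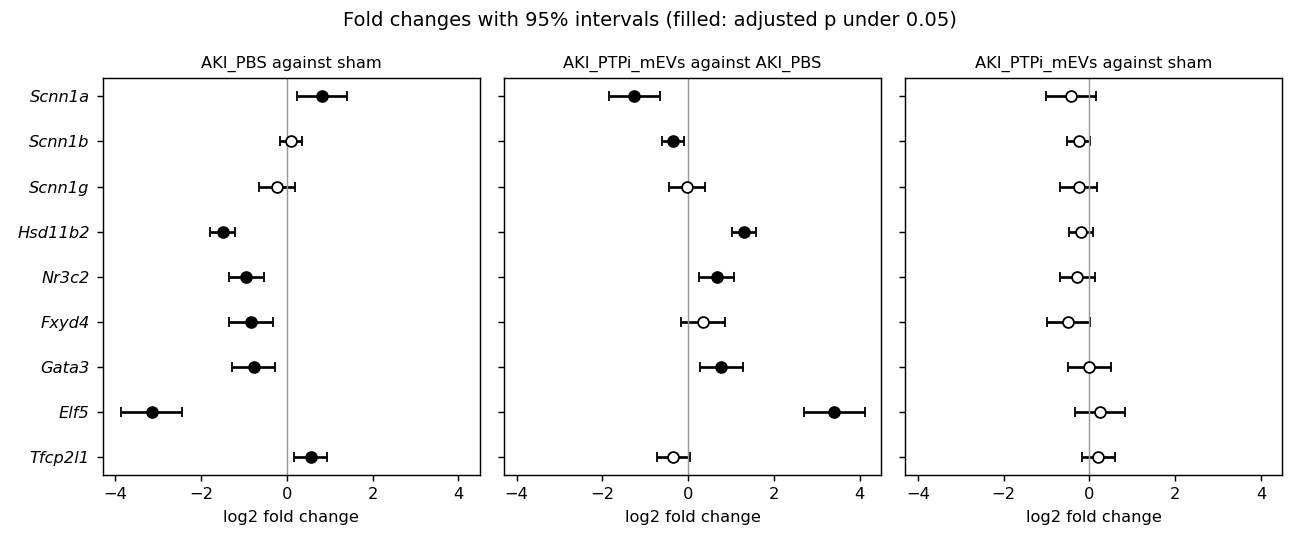
Log2 fold change of each gene (horizontal axis) in the 3 comparisons, with 95% intervals from edgeR's quasi-likelihood fit; filled points passed an adjusted p of 0.05. Elf5 lay at -3.15 and 3.41 in the first pair of panels, and in the panel for AKI_PTPi_mEVs against sham no point was filled.

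Leaving out AKI_PBS replicate 3, 6 of the 9 genes were called lower and none higher after injury, against 27.2% and 26.7% of all genes then tested. After vesicles 5 were higher and 1 lower than after PBS, against 24.9% and 24.5%. The falls of Hsd11b2, Nr3c2, Fxyd4 and Elf5 were called with any single library left out.

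The sequences before the starts of 3 of the fallen genes are shown to set the transcription factors beside their own binding letters. They are again the 250 bases before RefSeq starts on GRCm38.p6, in the direction of the gene, with CP2-type matches in capitals. Elf5 has a pair of starts in RefSeq, and both windows are given.
Elf5 chr2:103411848-103412097 (+): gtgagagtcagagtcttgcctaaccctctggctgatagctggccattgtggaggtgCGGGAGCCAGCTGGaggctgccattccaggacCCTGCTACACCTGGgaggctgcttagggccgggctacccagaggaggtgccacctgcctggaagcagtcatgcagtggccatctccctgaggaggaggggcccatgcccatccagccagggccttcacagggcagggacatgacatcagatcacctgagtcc
Elf5 chr2:103423818-103424067 (+): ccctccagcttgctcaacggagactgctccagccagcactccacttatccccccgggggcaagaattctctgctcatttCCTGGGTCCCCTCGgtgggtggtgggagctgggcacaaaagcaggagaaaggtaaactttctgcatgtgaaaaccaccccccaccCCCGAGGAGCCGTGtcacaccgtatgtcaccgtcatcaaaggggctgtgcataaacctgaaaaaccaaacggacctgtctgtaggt
Nr3c2 chr8:76902080-76902329 (+): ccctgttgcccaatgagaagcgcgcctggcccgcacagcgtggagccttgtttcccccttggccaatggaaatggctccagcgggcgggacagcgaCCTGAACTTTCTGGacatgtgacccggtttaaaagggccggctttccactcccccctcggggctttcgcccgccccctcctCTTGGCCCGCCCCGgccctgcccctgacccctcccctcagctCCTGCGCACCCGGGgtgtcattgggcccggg
Gata3 chr2:9878601-9878850 (-): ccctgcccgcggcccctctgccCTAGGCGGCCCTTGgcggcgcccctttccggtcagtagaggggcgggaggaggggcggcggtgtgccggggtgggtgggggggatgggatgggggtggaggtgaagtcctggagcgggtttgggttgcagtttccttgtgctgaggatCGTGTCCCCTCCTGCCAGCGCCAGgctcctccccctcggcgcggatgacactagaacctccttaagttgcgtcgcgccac
Each window holds 2 or 3 CP2-type matches, and of the 8 windows found 7 hold at least 1, all but that of Tfcp2l1 itself. The letters GATAA, the core bound by GATA factors such as Gata3, occur once, on the reverse strand of the second Elf5 window from 206 to 202 bases before the start, and in 22.6% of all windows. No window was printed for Scnn1a or Hsd11b2.

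To compare levels between genes, CPM was divided by the length of all annotated exons in kilobases (CPM per kb). In sham Hsd11b2 was highest at 98.9 ± 7.72 CPM per kb, followed by Tfcp2l1 at 42.0 ± 2.98. Fxyd4 (31.8 ± 8.09), Scnn1b (31.2 ± 2.44), Scnn1g (26.3 ± 1.26) and Scnn1a (24.5 ± 3.63) came next. Fxyd4 overlapped Tfcp2l1 and each channel subunit, and Scnn1g overlapped Scnn1a, while every Scnn1b value lay above every Scnn1g value. Gata3 followed at 18.1 ± 1.23, and Nr3c2 (3.10 ± 0.345) and Elf5 (1.59 ± 0.438) were far lower. After injury the order changed. Tfcp2l1 came first (61.6 ± 16.3 CPM per kb), and its range, 48.3 to 79.8, overlapped that of Scnn1a, 30.5 to 64.3. Scnn1a (43.5 ± 18.2), Hsd11b2 (35.0 ± 3.24) and Scnn1b (33.4 ± 2.85) overlapped one another. With AKI_PBS replicate 3 left out the means of these 3 were 33.0, 35.2 and 31.8 CPM per kb, so the place of Scnn1a above Hsd11b2 rested on that library. In AKI_PTPi_mEVs Hsd11b2 was again highest, at 86.0 ± 6.26 CPM per kb, and Scnn1a, at 18.2 ± 4.74, was level with Gata3 at 18.0 ± 2.76.

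Genes that resembled each subunit across the 9 libraries were taken by Pearson's r of log2 CPM, among the 11332 genes whose log2 CPM averaged 2 or more. For Scnn1a they were Atg2a, Gnas and Sun2, each with r = 0.97, and 19 genes had r above 0.95. For Scnn1b they were Peli2 and Rmnd5a (both 0.96) and Ubr2 (0.94), with 2 genes above 0.95. For Scnn1g they were Herpud1 and Rad52 (both 0.93) and Tmem106b (0.92), with no gene above 0.95. All points share the grouping and the same libraries, so these are descriptions.

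Regulators of the channel were mixed after injury. Shares over all tested genes, for this list and those below, were 27.9% lower and 27.8% higher after injury. They were 25.8% and 25.4% after vesicles against PBS, and 5.79% and 7.43% after vesicles against sham. Of 19 listed regulators and proteases 7 rose, 6 fell and 6 did not pass, with a median log2 fold change of 0.24. Sgk1, the aldosterone-induced kinase that keeps ENaC at the membrane, held 230, 178 and 144 CPM in sham, 337, 359 and 863 CPM in AKI_PBS, and 178, 135 and 204 CPM in AKI_PTPi_mEVs. Replicate 3 was again the highest of the injured libraries, and all of them lay above sham. Sgk1 rose by 1.50 ± 0.33 (edgeR adjusted p = 0.0026) and was lower after vesicles than after PBS, at -1.59 ± 0.33 (edgeR adjusted p = 0.0021). With that library left out these differences were 0.92 and -1.01, and both passed. Nedd4l, the ubiquitin ligase that removes ENaC from the membrane and that Sgk1 inhibits, rose by 0.53 ± 0.14 (edgeR adjusted p = 0.0052) and was lower after vesicles by the same test, at -0.65 ± 0.14 (edgeR adjusted p = 0.0017).

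The membrane proteases on this list moved in opposite directions. Prss8, which encodes prostasin, an activator of the channel, fell by 1.84 ± 0.17 on the log2 scale and was higher after vesicles than after PBS by 1.79 ± 0.17. St14, which encodes matriptase, a protease upstream of prostasin, rose by 1.70 ± 0.16, and after vesicles it was at -1.13 ± 0.15 against AKI_PBS. It stayed above sham by 0.57 ± 0.15 (edgeR adjusted p = 0.028). Per1, a clock gene that in mouse collecting duct cells promotes Scnn1a expression, rose by 1.77 ± 0.19 and was below sham after vesicles, at -0.98 ± 0.19 (edgeR adjusted p = 0.0058). Between the injured groups 5 of the 19 genes were higher and 7 lower after vesicles (median -0.17). Against sham, 3 were higher and 3 lower (median -0.07).

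Other FXYD genes, which encode modulators of the sodium pump related to Fxyd4, were mixed. Of 7 measured genes on the list of the pump and its modulators, Fxyd4 not included, 1 rose and 2 fell after injury. Fxyd5 rose by 1.11 ± 0.24, while Fxyd2 (-0.58 ± 0.15) and Fxyd1 (-0.996 ± 0.31) fell. Between the injured groups none of the 7 was higher and Fxyd5 alone was lower, at -0.82 ± 0.23, and without AKI_PBS replicate 3 the higher count was 2.

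Of 9 other genes of corticosteroid signalling, 4 rose and 3 fell after injury, and 3 were higher and 3 lower after vesicles than after PBS. Nr3c1, which encodes the glucocorticoid receptor, fell by 0.70 ± 0.14 (edgeR adjusted p = 0.0012) and was higher after vesicles by 0.49 ± 0.14 (edgeR adjusted p = 0.013). Fkbp5, a glucocorticoid-induced chaperone partner of the receptor, rose by 2.10 ± 0.20 and was at -2.04 ± 0.20 after vesicles against PBS. Hsd11b1, whose enzyme regenerates active glucocorticoid, fell by 2.06 ± 0.24 and stayed below sham after vesicles, at -1.32 ± 0.24 (edgeR adjusted p = 0.004). H6pd, which supplies the cofactor of that enzyme, rose by 1.24 ± 0.14.

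Of 9 other principal cell genes measured, 5 fell and 1 rose after injury (median -0.72), against 27.9% and 27.8% of all tested genes. Ptges rose by 1.19 ± 0.15, and Kcnj10, Npnt and Hoxb7 did not pass. After vesicles 5 were higher and 1 lower than in AKI_PBS (median 0.42), against 25.4% and 25.8% of all tested genes. The lower one was Ptges, at -1.25 ± 0.16. Aqp4, the basolateral water channel, held 112, 75.0 and 68.3 CPM in sham, 8.56, 5.06 and 2.92 CPM in AKI_PBS, and 145, 86.2 and 54.2 CPM in AKI_PTPi_mEVs. It fell by 3.94 ± 0.43 on the log2 scale, with no overlap between AKI_PBS and the rest. Kcnj1, the apical potassium channel ROMK, which the thick ascending limb also makes, fell by 2.40 ± 0.15 and was higher after vesicles by 2.30 ± 0.15. Apela, a peptide hormone gene of the collecting duct, fell by 3.27 ± 0.24 and stayed below sham after vesicles, at -0.80 ± 0.21 (edgeR adjusted p = 0.027). Aqp2, the vasopressin-regulated water channel, held 1744, 1198 and 1029 CPM in sham, 579, 387 and 1063 CPM in AKI_PBS, and 1460, 1482 and 1340 CPM in AKI_PTPi_mEVs. Replicate 3 of AKI_PBS lay within the sham range, and Aqp2 fell by 0.97 ± 0.30 (edgeR adjusted p = 0.017). Without that library it fell by 1.45 (edgeR adjusted p = 0.0003).

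Notch signalling sets principal against intercalated cell fate. Of 12 listed genes, 5 rose and 1 fell after injury, against 27.8% and 27.9% of all tested genes. After vesicles 1 was higher and 5 lower than after PBS, against 25.4% and 25.8%. Hes1, a Notch target, rose by 1.45 ± 0.31, Notch2 by 0.60 ± 0.14 and the ligand-activating ligase gene Mib1 by 0.46 ± 0.12. The gene that fell was the ligand gene Dll1, at -0.64 ± 0.23 (edgeR adjusted p = 0.031). Hey1, also a Notch target, lay in the direction opposite to Hes1, at -0.88 ± 0.39, and did not pass (edgeR adjusted p = 0.070). None of the 12 passed between vesicle-treated and sham kidneys, where only 13.2% of all tested genes were called. Of 18 other transcription factors of the collecting duct and distal nephron, 4 rose and 5 fell after injury, 3 were higher and 4 lower after vesicles than after PBS. The CP2 family members split: Tfcp2 fell by 1.26 ± 0.17 and Ubp1 rose by 0.83 ± 0.13, in the direction of Tfcp2l1. Emx1 fell by 1.56 ± 0.22.

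**Figure D4:**
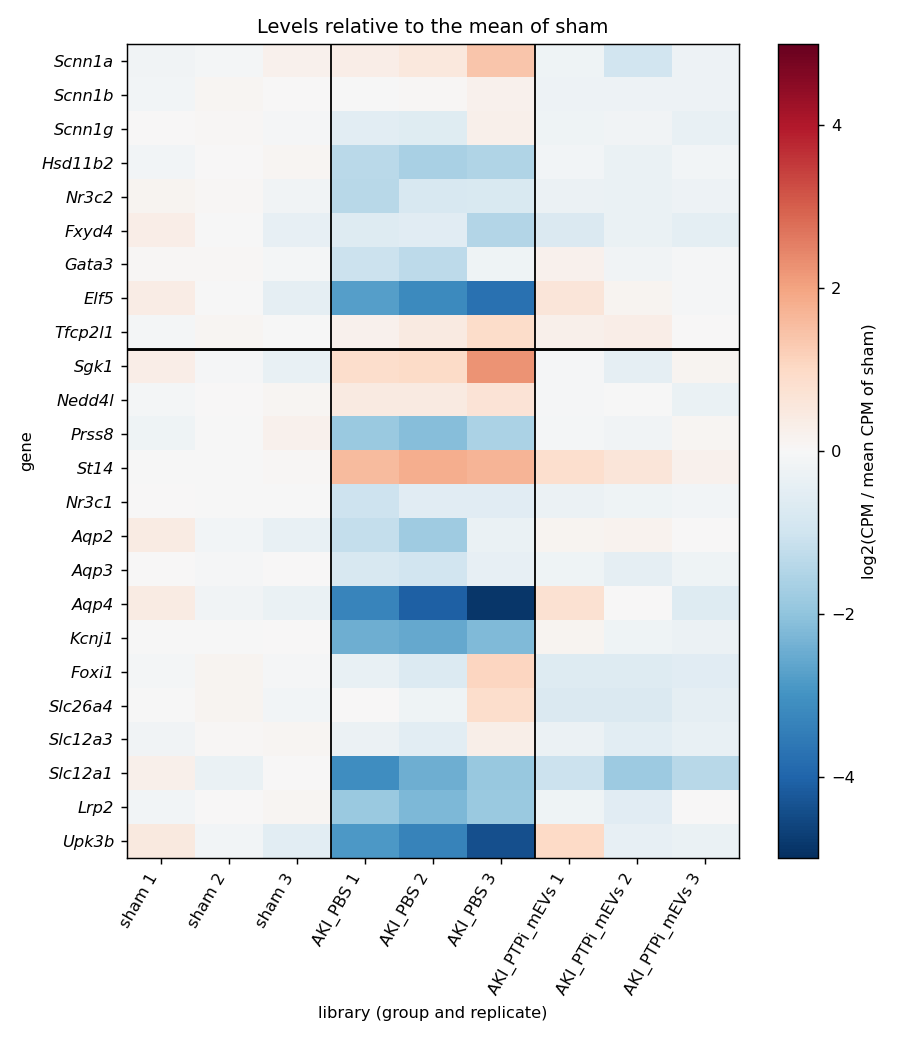
Log2 of CPM over the mean CPM of sham (colour, blue lower and red higher) for the 9 genes above the line and for genes of the listed regulators and nephron segments below it, in each of the 9 libraries (columns). Elf5 and Aqp4 lay far below sham in every AKI_PBS library, and Scnn1a, Tfcp2l1, Sgk1 and Foxi1 were highest in AKI_PBS replicate 3.

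Markers of other cells moved in the same comparisons, and their part in the results above was not tested. Intercalated cells lie beside principal cells and carry Tfcp2l1 as well. Of 11 intercalated cell genes none rose and 5 fell after injury, with Slc4a1 at -3.49 ± 0.26, Atp6v1b1 at -1.34 ± 0.17 and Insrr at -1.80 ± 0.31. Their summed level was 827 to 937 CPM in sham, 561 to 972 CPM in AKI_PBS and 566 to 642 CPM in AKI_PTPi_mEVs. Foxi1, the factor that defines intercalated cells, held 77.0, 91.8 and 80.4 CPM in sham, 63.8, 51.8 and 173 CPM in AKI_PBS and 53.2, 53.6 and 55.9 CPM in AKI_PTPi_mEVs. Like Scnn1a and Scnn1g it was highest in AKI_PBS replicate 3, and its difference after injury, 0.21 ± 0.35, did not pass (edgeR adjusted p = 0.63). Without that library the difference turned to -0.52 and passed (edgeR adjusted p = 0.0061). Between the injured groups 3 intercalated cell genes were higher and 3 lower after vesicles, and without AKI_PBS replicate 3 the higher count was 5. Against sham 2 were lower with all libraries and 8 without that one. Over all genes tested in that comparison, leaving the library out raised the share called lower to 8.47% and the share called higher to 11%.

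The distal convoluted and connecting tubule also carries ENaC, Nr3c2 and Hsd11b2. Of 10 genes 3 rose and 5 fell after injury (median -0.23). Trpv5 (1.43 ± 0.31), Trpm6 (1.32 ± 0.26) and S100g (0.71 ± 0.21) rose. Klhl3 (-2.28 ± 0.18) and Slc8a1 (-1.64 ± 0.15) were among those that fell. Their summed level was 2998 to 3020 CPM in sham, 2539 to 3210 CPM in AKI_PBS and 1796 to 1951 CPM in AKI_PTPi_mEVs. After vesicles 6 of the 10 were below sham and none above, against 5.79% of all tested genes called lower and 7.43% higher. Pvalb, a marker of the early distal convoluted tubule, was among them at -2.42 ± 0.32. Most listed genes of earlier segments fell. Of 6 thick ascending limb genes 4 fell (median -1.13), among them Cldn10 at -3.41 ± 0.18, Slc12a1 at -2.40 ± 0.28 and Ptger3 at -0.98 ± 0.23, with a sum of 2835 to 3204 CPM in sham, 1147 to 2201 CPM in AKI_PBS and 1794 to 2132 CPM after vesicles. Of 8 proximal tubule genes 7 fell (median -1.83), among them Gatm at -3.61 ± 0.28, Aqp1 at -2.77 ± 0.24 and Lrp2 at -1.98 ± 0.17, with a sum of 8811 to 10916 CPM in sham, 2586 to 4220 CPM in AKI_PBS and 6379 to 10407 CPM after vesicles. Elf5, at -3.15, lay below both medians but above Gatm and Cldn10, and Hsd11b2, at -1.50, lay between the medians.

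Urothelium and stroma differed between libraries as well. Of 8 urothelial genes 5 fell and 1 rose after injury, with Psca at -3.53 ± 0.46, Upk3b at -3.39 ± 0.48 and Upk3a at -3.24 ± 0.50, and their sum was 159 to 226 CPM in sham, 13.6 to 48.4 CPM in AKI_PBS and 92.4 to 254 CPM in AKI_PTPi_mEVs. Gata3 is also made in urothelium. None of 8 T cell and innate lymphoid genes, another source of Gata3, passed the filter on low counts. Their sum was 2.74 to 4.21 CPM in sham, 1.33 to 1.72 CPM in AKI_PBS and 1.20 to 1.47 CPM in AKI_PTPi_mEVs, with 1 of the 8, Cd3d, at 0 counts in the last group. Of 7 mesangial and pericyte genes, a further source of Gata3, 2 rose and 2 fell after injury, Pdgfrb at 0.98 ± 0.26, Itga8 at -1.52 ± 0.29 and Cspg4 at -0.74 ± 0.21 among them. Their sum was 425 to 501 CPM in sham, 472 to 594 CPM in AKI_PBS and 260 to 390 CPM in AKI_PTPi_mEVs. Of 6 stromal and endothelial genes 1 rose, Cdh5 at 0.83 ± 0.29, which did not pass without AKI_PBS replicate 3 (0.62). Kdr, at 0.35 ± 0.29, and Dcn, at -0.72 ± 0.36, did not pass with all libraries, and without that one Dcn did (-1.16). The summed range of the 6, 208 to 254 CPM in AKI_PBS, lay within that of sham, 167 to 284 CPM, and that of AKI_PTPi_mEVs, 168 to 338 CPM. Single genes still differed between the injured groups. Against AKI_PBS, 1 of the 6 was higher after vesicles, Col1a1 at 1.41 ± 0.39, and 2 were lower, Cdh5 at -1.47 ± 0.30 and Kdr at -1.20 ± 0.30.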

How the data were processed

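The authors deposited whole-number read counts for each gene. STAR and HTSeq were used to make the counts, per the submitters' processing notes. Neither versions nor a strand setting is named there. Those notes name the human build GRCh38.p14, whereas the 56923 identifiers belong to mouse in Ensembl. Which build was used was not settled, and the files' genes were not placed on a genome. RNA was extracted from kidney with phenol-chloroform and libraries were made with a Tn5-based kit, per the labels' protocols.

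Of the identifiers 52073 matched a symbol and 4850 did not, and 0 columns were left unmapped. In R 4.3.3, edgeR 4.0.16 was run with filterByExpr by group (17036 genes left), TMM factors, glmQLFit (robust) on all 9 libraries with a mean per group (6 residual degrees of freedom) and glmQLFTest with Benjamini-Hochberg adjustment. The procedure was also run on simulated counts. Far fewer genes changed in them than were called here, so that run does not test the procedure at this scale. Subunit ratios were compared with two-sided exact permutation tests in Python 3.11.15, and figures were drawn with matplotlib 3.10.9. Exon lengths and overlaps came from GENCODE M21 and promoter sequences from RefSeq (GRCm38.p6), both used by gene name or identifier. Motifs were searched on both strands of the 250 bases before each start.

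The 9 genes and the 14 other lists (150 listed names with the 9 genes included, all 150 matched) were chosen with earlier results of these data known. The genes named were the 9, the 3 of each other list with the smallest adjusted p after injury (2 where none passed), Sgk1, Nedd4l, Aqp2, Nr3c1, Foxi1 and Ptpn1, and the 3 genes most like each subunit. A further gene under this rule is not reported here. Cd3d, Trpv5, Trpm6, S100g, Ptges, Kcnj10, Npnt, Hoxb7, Dll1, Hey1, Col1a1 and the remaining genes of the colour plot (Aqp3, Slc26a4, Slc12a3) were chosen after their values were seen. Alternatives were relative log expression factors, library totals, DESeq2 1.42.0, limma voom (limma 3.58.1), no low-count filter, a stricter one, the groups compared alone, a replicate block and each library left out. The counts of the gene lists and the values of the other named genes without AKI_PBS replicate 3 were added after seeing the data.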

Additional observations from a re-analysis of the deposited data

How the results depend on the processing

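Over 17 alternative settings the 9 genes gave 459 log2 fold changes, of which 423 kept both direction and side of the threshold, 19 lost a call, 4 gained one and 13 turned direction, of which 1 also gained a call. Those 13 were of 2 genes whose value with all libraries was near 0. For Scnn1g in AKI_PTPi_mEVs against AKI_PBS the value was 0.030 with limma voom, 0.022 with no low-count filter, 0.0073 with a replicate block, 0.31 without AKI_PBS replicate 3 and 0.04 without AKI_PTPi_mEVs replicate 3, and it ran from -0.18 to 0.31 with each library left out. For Gata3 in AKI_PTPi_mEVs against sham it was 0.0051 with no low-count filter, and with 1 library left out 0.03 and 0.02 (sham replicates 1 and 2), 0.0020, 0.0013 and 0.0018 (AKI_PBS replicates 1 to 3), and 0.072 and 0.04 (AKI_PTPi_mEVs replicates 2 and 3). Foxi1 after injury was at -0.52 without AKI_PBS replicate 3. That library's removal also cost Mib1 its call after vesicles against PBS (-0.30, edgeR adjusted p = 0.051). The cause was not tested.

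With each library left out, the genes called after injury numbered 4 to 6 lower and 0 to 2 higher of the 9, and those after vesicles against PBS 1 to 3 lower and 3 to 5 higher. For AKI_PTPi_mEVs against AKI_PBS, 1 gene was lower with no low-count filter, with the replicate block and with only the groups compared, and 3 with library totals. Scnn1b lost its call in the first of these (-0.31, edgeR adjusted p = 0.161), in the block (edgeR adjusted p = 0.0504) and in the groups alone (edgeR adjusted p = 0.05002). For AKI_PTPi_mEVs against sham 1 gene, Fxyd4, was lower with no filter (-0.48, edgeR adjusted p = 0.0474). Over all genes the calls with 1 library left out numbered 8028 to 9650, 7337 to 8743 and 878 to 3395 in the 3 comparisons, and in the last, against 2252 with all libraries, 3395 without AKI_PBS replicate 3 and 878 without AKI_PTPi_mEVs replicate 2. Library totals moved the median of all genes from 0.03 to 0.11 after injury and from -0.03 to -0.13 after vesicles against PBS, with 5250 higher and 4301 lower, and 3757 higher and 5048 lower.

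Replicate numbers did not pair the libraries: deviations from group means correlated at -0.19 to 0.11 for the same number and -0.17 to 0.15 for different numbers. With the replicate block 9213, 8491 and 2050 genes were called. With 3 libraries a group, a gene whose 95% interval spans 0 may still differ by any size within it, and the 8 to 16 counts of Elf5 in AKI_PBS limit its fold change.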
